A study of Mus musculus with 16 samples.

Results

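Chemokines are small secreted proteins that draw leukocytes to a tissue. The expression of 10 chemokine ligand genes was followed in the mouse retina. They were Ccl2, Ccl7, Ccl12, Ccl3, Ccl4, Ccl5, Cxcl9, Cxcl1, Cxcl12 and Cxcl16. The members were all probes that the array design names by one of these symbols, current or older. This gave 20 probes for 10 genes, out of 43426 probes for 25689 genes on the array. Of these, 18 probes for 9 genes passed the filter on dim spots, which asked for a Cy3 signal well above background on at least 3 arrays. The only probe of Ccl3 did not pass, nor did 1 of the 2 probes of Cxcl1.

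Each of 16 arrays carried retinal RNA of C57Bl6 mice, a standard inbred strain. The labels name no allele or transgene. The groups were retinas given VEGF-A (n = 5), Dll4-Fc (n = 4), VEGF Trap (n = 3) or hFc, the Fc part alone, as the control (n = 4). Pups received 1 µg of VEGF-A, 4 µg of Dll4-Fc or 4 µg of hFc into the vitreous at 8 days of age, and retinas were collected 24 h later. The labels state no dose or age for VEGF Trap. VEGF-A is the main growth factor of retinal vessels, VEGF Trap is a soluble decoy that binds it, and soluble Dll4-Fc can interfere with signalling from the ligand Dll4 to Notch receptors. The hFc, Dll4-Fc and VEGF-A retinas share the injection itself, and no uninjected retina was analysed here.

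Values are log2 ratios of the sample (Cy3) over a pool of RNA from the same experiment (Cy5), so 0 is the level of the pool and 1 unit is a doubling. A ratio compares 1 probe between arrays and says nothing of the level of a gene against another. A probe was called where the limma p, adjusted over all probes by Benjamini-Hochberg, was under 0.05. Counts of genes use the probe with the brightest mean Cy3 signal. Whether the samples of a group came from different animals is not stated in the labels. The p-values thus reflect sample-to-sample spread that may be only technical. In whole retina, more cells of a type and more RNA per cell cannot be told apart. The 4 hFc arrays filled slide 1 and the 4 Dll4-Fc arrays slide 2, so slide and treatment cannot be told apart in any comparison with either group. VEGF-A and VEGF Trap arrays shared slides 3 and 4. The comparisons with hFc share the same 4 control arrays. Between 84.9 and 91.0% of spots per array were well above background in Cy3. The hFc arrays had 2350 to 2599 outlier spots against 12 to 213 on the other arrays, and these were left out. Of the 18 probes, only A_51_P172505 for Cxcl12 lost a value to an outlier spot, on VEGF Trap array 3. Array rows where at least 10% of spots were outliers on hFc arrays, on average, lay between rows 67 and 231 of 532. The probes A_51_P485312 for Ccl5 (row 84), A_51_P436652 for Ccl7 (row 76) and A_52_P685021 for Cxcl12 (row 146) lay in that range. The brightest probe of every ligand gene lay outside that range. With those rows left out the counts of called ligand genes did not change. Those counts use the brightest probes only, so they could not show an effect on the probes named here.

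Chemokine ligands fall into families by receptor. CCL2, CCL7 and CCL12 act on CCR2 and call monocytes out of the blood. CCL3, CCL4 and CCL5 are inflammatory chemokines that attract monocytes and T cells. CXCL9, typically induced by interferon gamma, acts on CXCR3 of activated T cells and NK cells, and CXCL1 acts on CXCR2 of neutrophils. CXCL12 holds stem cells and leukocytes through CXCR4, guides vessels, and is also bound by the scavenger ACKR3. CXCL16 is made as a transmembrane protein and is the ligand of CXCR6. In the retina, microglia, Müller glia, vessels and arriving monocytes are all known sources of such ligands.

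The ligands that passed the test were not the same after each protein. After VEGF-A, the monocyte ligands Ccl2 and Ccl12, the vessel-associated ligand Cxcl12 and, close to the threshold, Ccl4 were higher than after hFc. After Dll4-Fc, Ccl2 and Ccl12 rose too, joined by the T cell ligands Ccl5 and Cxcl9, while Cxcl16 fell. After VEGF Trap, Ccl5 rose. Of 9 ligand genes tested, 4 rose and 0 fell after VEGF-A, where 5.66% of all genes tested rose and 3.78% fell. After Dll4-Fc 4 ligand genes rose and 1 fell, where 2.92% of all genes rose and 1.43% fell. After VEGF Trap 1 ligand gene rose and 0 fell, where 1.01% of all genes rose and 1.88% fell. The median log2 difference over the 9 genes was 0.86 after VEGF-A, 1.14 after Dll4-Fc and 0.23 after VEGF Trap, beside medians over all genes of −0.046, −0.017 and −0.025. Genes that were bright in only some groups could enter these 9, so the counts and medians describe only the genes that passed.

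**Figure D1:**
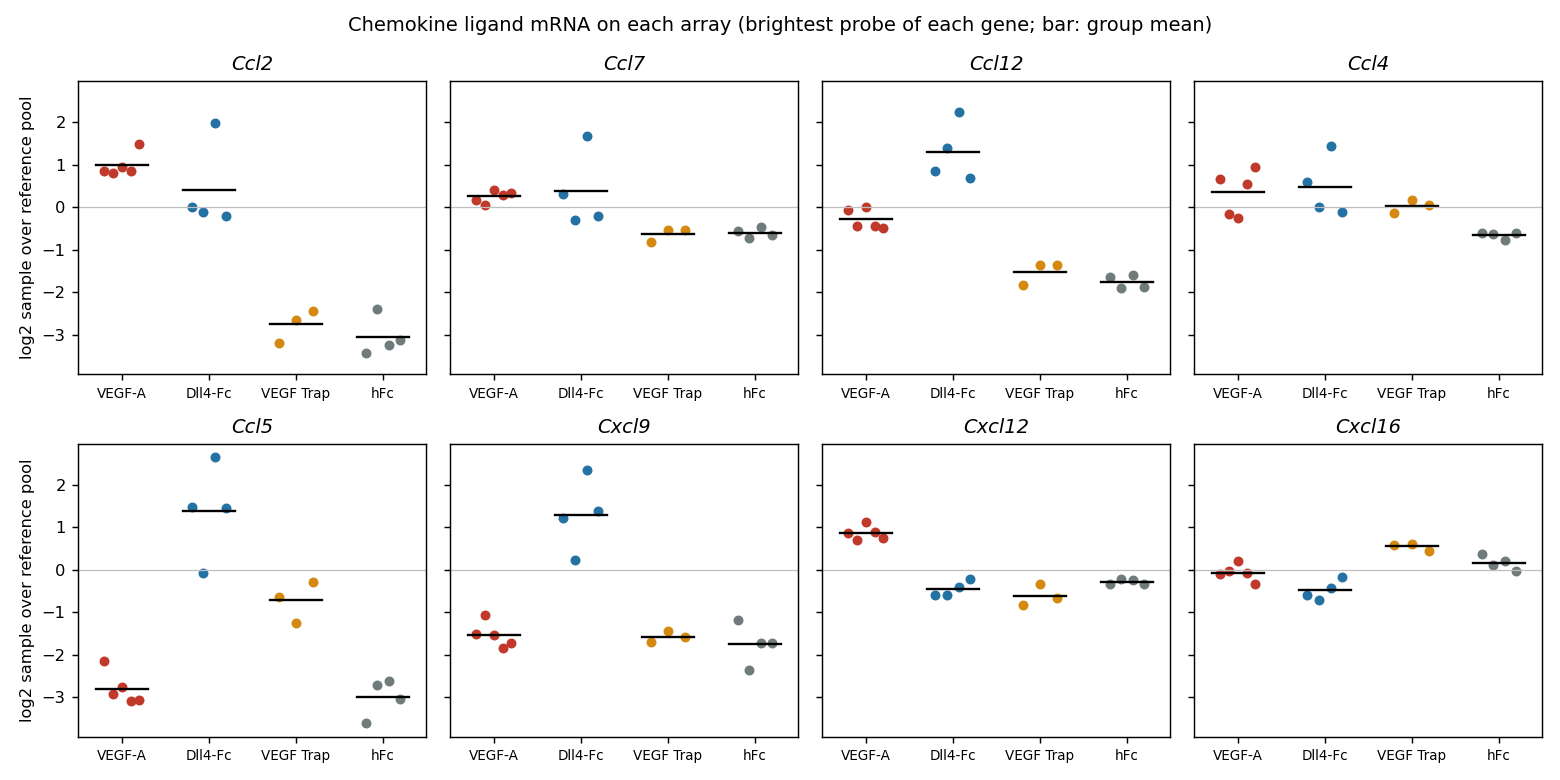
Log2 ratio of sample over pool (vertical axis) on each of 16 arrays for the brightest probe of the ligand genes; points are single arrays, grouped from left to right as VEGF-A, Dll4-Fc, VEGF Trap and hFc, and bars mark group means. Ccl2 was high on VEGF-A and Dll4-Fc arrays, Ccl5 and Cxcl9 on Dll4-Fc arrays, and Cxcl12 on VEGF-A arrays.

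Upstream sequences of 5 of the 10 genes (Ccl3, Ccl12, Cxcl1, Cxcl9 and Cxcl12) were at hand from RefSeq (build GRCm38.p6), as 250 bases before and 50 after the start of the gene. Those of Ccl12, Cxcl9 and Cxcl12 are shown because they differ in which comparisons with hFc they passed. Ccl12 passed after VEGF-A and Dll4-Fc, Cxcl9 after Dll4-Fc and Cxcl12 after VEGF-A. Capitals mark matches to TATAAA or to the AP-1 letters TGANTCA, searched on both strands.
Ccl12, chr11:82101595-82101894, + strand: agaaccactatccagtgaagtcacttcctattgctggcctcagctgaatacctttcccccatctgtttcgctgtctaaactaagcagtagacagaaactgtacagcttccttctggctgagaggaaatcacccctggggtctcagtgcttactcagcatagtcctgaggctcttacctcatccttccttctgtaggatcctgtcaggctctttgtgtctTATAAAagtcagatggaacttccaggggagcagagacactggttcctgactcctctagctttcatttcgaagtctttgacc
Cxcl9, chr5:92328030-92328329, − strand: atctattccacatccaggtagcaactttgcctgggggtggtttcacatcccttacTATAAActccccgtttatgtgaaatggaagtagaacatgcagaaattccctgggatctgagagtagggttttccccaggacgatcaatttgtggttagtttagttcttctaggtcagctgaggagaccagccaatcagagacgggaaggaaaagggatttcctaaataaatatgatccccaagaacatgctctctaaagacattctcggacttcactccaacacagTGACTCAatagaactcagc
Cxcl12, chr6:117168285-117168584, + strand: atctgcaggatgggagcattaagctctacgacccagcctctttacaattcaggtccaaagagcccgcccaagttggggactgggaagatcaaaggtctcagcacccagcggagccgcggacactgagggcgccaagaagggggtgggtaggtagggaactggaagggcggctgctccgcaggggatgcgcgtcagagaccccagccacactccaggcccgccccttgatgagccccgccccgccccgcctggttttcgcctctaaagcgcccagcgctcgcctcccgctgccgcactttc
Ccl12 held TATAAA starting at base −31 from the start of the gene. Cxcl9 held it at base −195, with an AP-1 match at base 32. Cxcl12 held neither. Among 32851 promoters of the same length, 13.6% held TATAAA and 7.81% the AP-1 letters. The NF-kB consensus was found only in the promoter of Cxcl1, at bases −71 and −70 on opposite strands, against 8.46% of all promoters. The interferon-response core (GAAA, any 2 bases, GAAA), held by 3.44% of all promoters, and the GAS letters TTCNNNGAA (8.30%) were in none of the 5 windows. These are matches of letters only, and longer stretches upstream were not searched.

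Ccl2, the main attractant of CCR2-bearing monocytes, was high after both VEGF-A and Dll4-Fc and low after VEGF Trap and hFc. On its brightest probe (A_51_P286737) the log2 ratios were 0.84, 0.80, 0.93, 0.86 and 1.49 on the 5 VEGF-A arrays and −0.0036, −0.11, 1.97 and −0.21 on the 4 Dll4-Fc arrays. They were −3.19, −2.64 and −2.43 on the 3 VEGF Trap arrays and −3.44, −2.39, −3.25 and −3.12 on the 4 hFc arrays. Every VEGF-A and Dll4-Fc array was above every VEGF Trap and hFc array, and a single Dll4-Fc array, the third, stood well above its group. Ccl2 rose after VEGF-A by 4.03 (SE 0.38, 16.4-fold, adjusted p = 2.45e-06) against hFc and after Dll4-Fc by 3.46 (SE 0.40, 11-fold, adjusted p = 6.59e-05). The second probe, A_66_P107980, gave 4.11 (adjusted p = 2.76e-06) and 3.45 (adjusted p = 8.91e-05). After VEGF Trap the difference was 0.29 (95% interval −0.63 to 1.22, adjusted p = 0.748). A different background correction and normalization together (normexp with an offset of 50, then loess within arrays) gave 3.33 after VEGF-A and 2.74 after Dll4-Fc on the brightest probe and 2.70 and 2.08 on the second, all still called. Leaving out the third Dll4-Fc array gave 2.94 (adjusted p = 6.75e-06) after Dll4-Fc.

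Ccl7, a neighbour of Ccl2 on chromosome 11 that also acts on CCR2, was read by 3 probes that differed in size. On A_52_P208763, well above background on all 16 arrays, the ratios were 0.62, 0.11, 0.65, 0.38 and 0.77 with VEGF-A and 0.95, −0.39, 2.47 and −0.31 with Dll4-Fc. They were −1.09, −1.41 and −1.41 with VEGF Trap and −3.21, −2.15, −1.92 and −1.94 with hFc. All VEGF-A and Dll4-Fc arrays were above all hFc arrays, and VEGF Trap arrays also lay above the hFc arrays. Ccl7 on this probe rose by 2.81 (SE 0.47, 7.0-fold, adjusted p = 0.000866) after VEGF-A and by 2.99 (SE 0.49, 7.92-fold, adjusted p = 0.00157) after Dll4-Fc. On A_51_P436652, well above background on only 2 of 4 hFc arrays, the differences were 3.60 (adjusted p = 0.000687) and 3.62 (adjusted p = 0.00203). On the brightest probe, A_51_P436646, VEGF-A arrays averaged 0.25 ± 0.13, Dll4-Fc arrays 0.38 ± 0.91, VEGF Trap arrays −0.63 ± 0.16 and hFc arrays −0.60 ± 0.11 (SD). Its differences of 0.86 (adjusted p = 0.0894) after VEGF-A and 0.98 (adjusted p = 0.120) after Dll4-Fc were not called, although the arrays of VEGF-A and of Dll4-Fc did not overlap those of hFc. Ccl7 is therefore not among the 4 genes counted as rising in either comparison. The median over its probes gave 2.68 after VEGF-A and 2.88 after Dll4-Fc, both called. With the third Dll4-Fc array left out, the differences after Dll4-Fc on A_51_P436652 and A_52_P208763 were 3.02 and 2.39, and with normexp and loess they were 1.60 and 1.55. With normexp and loess the VEGF-A differences of those probes were 1.5 and 1.31. Without spots that held a surrogate value in either channel (set by the scanner software where a signal is too close to background), A_51_P436652 gave 2.61 after VEGF-A and 2.62 after Dll4-Fc. A fit of the Dll4-Fc and hFc arrays alone gave adjusted p of 0.0647 and 0.0588 on them.

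**Figure D2:**
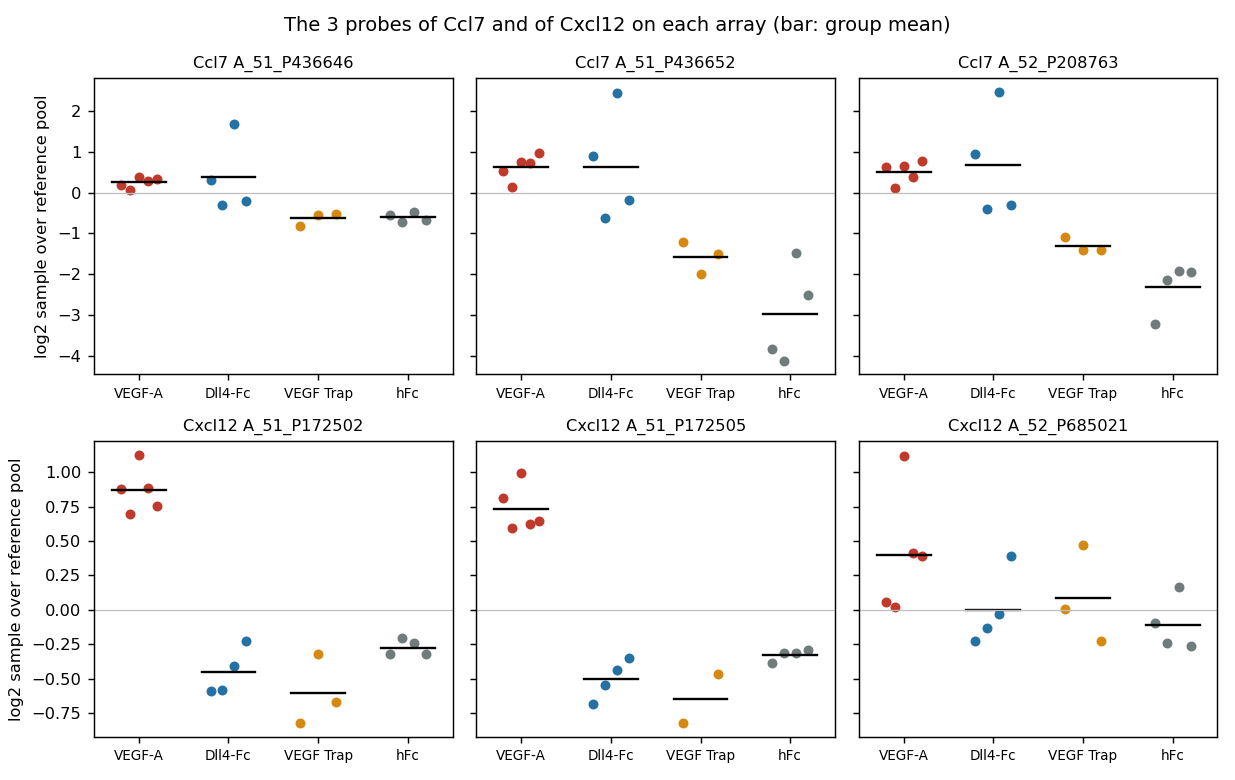
Log2 ratio of sample over pool on each array for the 3 probes of Ccl7 and the 3 probes of Cxcl12, with groups from left to right as VEGF-A, Dll4-Fc, VEGF Trap and hFc; points are arrays and bars are group means. The brightest Ccl7 probe spans a narrower range than the other 2 probes, and 2 Cxcl12 probes run together while the dim A_52_P685021 does not.

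Ccl12, a rodent CCR2 ligand, had its highest values after Dll4-Fc. On the brightest probe (A_52_P249514) the ratios were −0.058, −0.44, −0.0037, −0.45 and −0.49 with VEGF-A and 0.85, 1.38, 2.24 and 0.68 with Dll4-Fc. They were −1.82, −1.37 and −1.36 with VEGF Trap and −1.65, −1.89, −1.59 and −1.87 with hFc. The Dll4-Fc arrays lay above all VEGF-A arrays, and the VEGF-A arrays above all VEGF Trap and hFc arrays, which overlapped each other. Ccl12 rose by 1.46 (SE 0.25, 2.75-fold, adjusted p = 0.00111) after VEGF-A and by 3.04 (SE 0.26, 8.22-fold, adjusted p = 4.52e-06) after Dll4-Fc. The difference after VEGF Trap was 0.23 (95% interval −0.37 to 0.84, adjusted p = 0.692). The dimmer probe A_51_P307401, well above background on 3 of 4 hFc arrays, gave 1.38 (adjusted p = 0.00405) after VEGF-A and 2.95 (adjusted p = 1.51e-05) after Dll4-Fc. With normexp and loess its differences were 0.17 (adjusted p = 0.437) after VEGF-A and 0.86 (adjusted p = 0.000712) after Dll4-Fc, while the brightest probe gave 1.07 (adjusted p = 0.00663) and 2.57 (adjusted p = 6.99e-06). With only the VEGF-A arrays of slide 3 set against the hFc arrays, the call of A_51_P307401 was lost as well (1.19, adjusted p = 0.0664). The brightest probe kept its VEGF-A call in all 17 other settings.

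Among the inflammatory ligands Ccl3, Ccl4 and Ccl5, Ccl3 was not well above background on any array, with Cy3 mean signals of 118.1 to 148.3, so no difference is given. Ccl4 varied within groups. Its ratios (A_51_P509573) were 0.67, −0.16, −0.25, 0.55 and 0.95 with VEGF-A and 0.60, 0.016, 1.43 and −0.12 with Dll4-Fc. They were −0.13, 0.16 and 0.058 with VEGF Trap and −0.60, −0.63, −0.77 and −0.61 with hFc. The hFc arrays lay close together and below every array of the other groups, which overlapped one another. Ccl4 rose by 1.01 (SE 0.29, 2.01-fold, adjusted p = 0.0457) after VEGF-A. The call was lost in 7 of 9 fits that left out an array and in 6 of 17 other settings, with adjusted p up to 0.170. The differences of 1.14 (95% interval 0.47 to 1.80, adjusted p = 0.0574) after Dll4-Fc and 0.68 (95% interval −0.032 to 1.4, adjusted p = 0.278) after VEGF Trap were not called.

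Ccl5, which attracts T cells and monocytes, was the member with the widest difference after Dll4-Fc. On the brightest probe (A_52_P638459) the ratios were −2.15, −2.92, −2.75, −3.07 and −3.07 with VEGF-A and 1.47, −0.074, 2.65 and 1.46 with Dll4-Fc. They were −0.63, −1.24 and −0.29 with VEGF Trap and −3.61, −2.70, −2.62 and −3.03 with hFc. The Dll4-Fc arrays were highest, the VEGF Trap arrays came next, and the VEGF-A and hFc arrays overlapped at the low end. Ccl5 rose by 4.37 (SE 0.44, 20.6-fold, adjusted p = 1.81e-05) after Dll4-Fc and by 2.27 (SE 0.47, 4.83-fold, adjusted p = 0.0230) after VEGF Trap. The second probe, A_51_P485312, gave 4.52 (adjusted p = 1.13e-05) and 2.56 (adjusted p = 0.0103). After VEGF-A the difference was 0.20 (95% interval −0.69 to 1.08, adjusted p = 0.831). With normexp and loess the Dll4-Fc differences were 3.34 on the brightest probe and 2.90 on the second, both still called. The VEGF Trap call rested on few arrays. On the brightest probe it was lost without hFc array 1 (2.06, adjusted p = 0.0542), VEGF Trap array 1 (2.23, adjusted p = 0.109) and VEGF Trap array 3 (2.06, adjusted p = 0.0878), with normexp and loess (1.38, adjusted p = 0.0766), and with the VEGF Trap arrays of a single slide.

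Cxcl9, a CXCR3 ligand, was high only on Dll4-Fc arrays. Its ratios (A_51_P461665) were −1.51, −1.06, −1.53, −1.84 and −1.72 with VEGF-A and 1.21, 0.22, 2.35 and 1.4 with Dll4-Fc. They were −1.71, −1.43 and −1.58 with VEGF Trap and −1.17, −2.36, −1.72 and −1.72 with hFc. All Dll4-Fc arrays lay above all others, and the remaining groups overlapped. Cxcl9 rose by 3.04 (SE 0.35, 8.21-fold, adjusted p = 5.97e-05) after Dll4-Fc. The differences after VEGF-A, 0.21 (95% interval −0.49 to 0.91, adjusted p = 0.768), and after VEGF Trap, 0.17 (95% interval −0.63 to 0.97, adjusted p = 0.838), were not called. The probe was dim, with Cy3 mean signals of 147.7 to 426.0, and hFc array 2 was not well above background. With normexp and loess the Dll4-Fc difference was 1.06 (adjusted p = 0.00242). Cxcl1, the neutrophil ligand, was near background. Its probe A_51_P363187 was well above background on 8 of 16 arrays, namely 4 VEGF-A, 2 Dll4-Fc, 1 VEGF Trap and 1 hFc array, with Cy3 mean signals of 129.6 to 190.8. Its other probe was above background on none, so no differences are given for Cxcl1.

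Cxcl12, the ligand of CXCR4, was highest after VEGF-A. On the brightest probe (A_51_P172502) the ratios were 0.88, 0.69, 1.13, 0.89 and 0.75 with VEGF-A and −0.59, −0.58, −0.41 and −0.22 with Dll4-Fc. They were −0.82, −0.32 and −0.67 with VEGF Trap and −0.32, −0.21, −0.24 and −0.32 with hFc. The VEGF-A arrays were above all others, whose values overlapped below the pool. Cxcl12 rose by 1.14 (SE 0.11, 2.21-fold, adjusted p = 5.07e-06) after VEGF-A, and A_51_P172505 gave 1.06 (adjusted p = 6.41e-06). The third probe, A_52_P685021, gave 0.51 (adjusted p = 0.172) and was not called. The differences of −0.18 (95% interval −0.43 to 0.081, adjusted p = 0.633) after Dll4-Fc and −0.33 (95% interval −0.61 to −0.054, adjusted p = 0.179) after VEGF Trap were not called.

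Cxcl16, the membrane-bound ligand of CXCR6, was lowest after Dll4-Fc. On the brightest probe (A_52_P99888) the ratios were −0.093, −0.034, 0.20, −0.063 and −0.32 with VEGF-A and −0.59, −0.71, −0.44 and −0.17 with Dll4-Fc. They were 0.59, 0.60 and 0.45 with VEGF Trap and 0.38, 0.11, 0.21 and −0.032 with hFc. The Dll4-Fc arrays lay below all hFc arrays and the VEGF Trap arrays above them, while VEGF-A and hFc arrays overlapped. Cxcl16 fell after Dll4-Fc, with a log2 difference of −0.64 (SE 0.13, adjusted p = 0.00805). The other probes, A_51_P374198 and A_51_P374203, gave −0.45 (adjusted p = 0.0121) and −0.51 (adjusted p = 0.0308). The call of A_51_P374203 was lost in 7 of 8 fits that left out an array, with adjusted p up to 0.104, and in 3 of 14 other settings. That of A_51_P374198 was kept in all 8 such fits and lost in 2 of 14 other settings. A fit of the Dll4-Fc and hFc arrays alone gave an adjusted p of 0.0550 on the brightest probe. After VEGF-A the difference was −0.23 (95% interval −0.49 to 0.033, adjusted p = 0.30) and after VEGF Trap 0.39 (95% interval 0.088 to 0.68, adjusted p = 0.148), and neither was called.

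**Figure D3:**
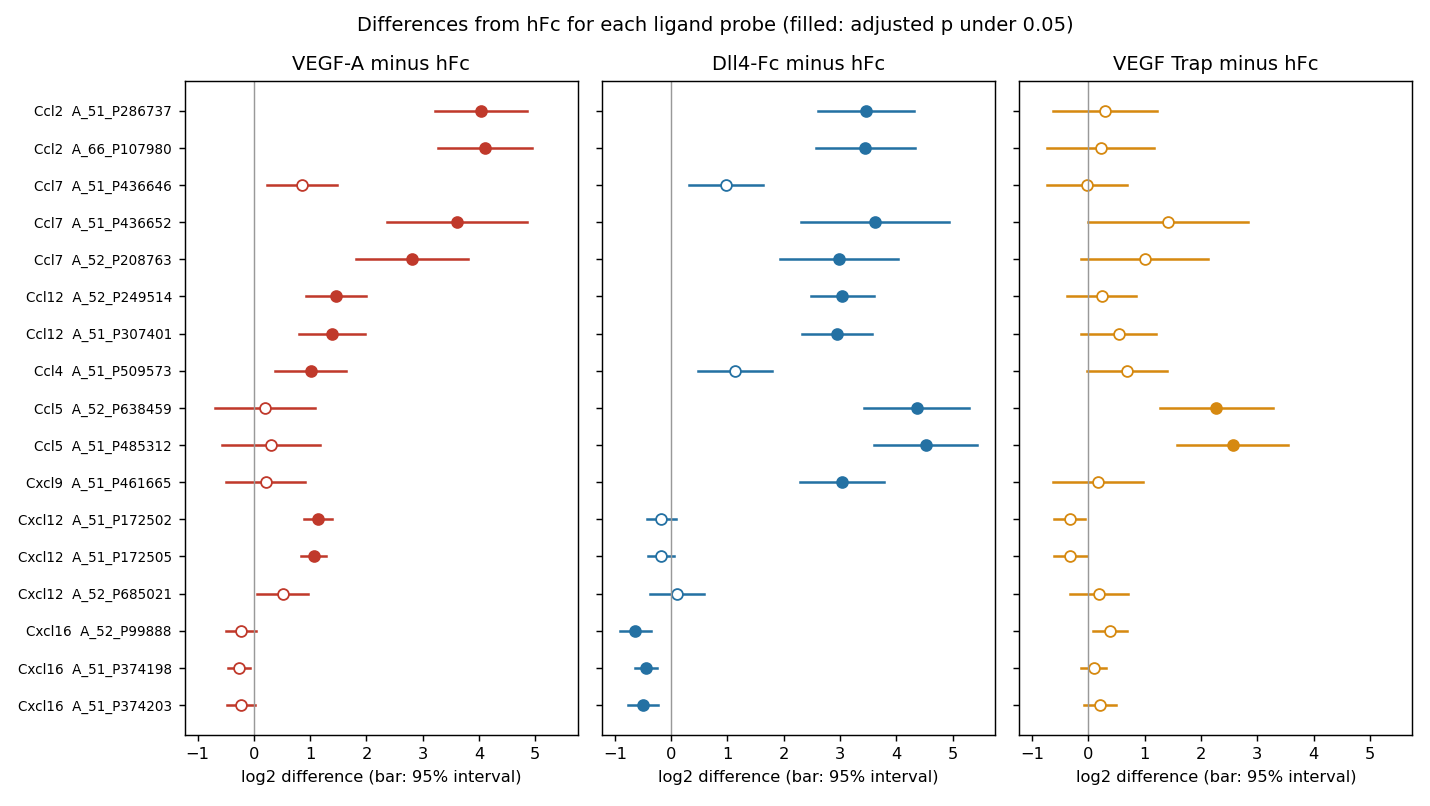
Log2 difference from hFc (horizontal axis) with its 95% confidence interval for each tested ligand probe, in the order VEGF-A, Dll4-Fc and VEGF Trap; filled points passed an adjusted p of 0.05. The Ccl5 and Cxcl9 probes stand far from 0 after Dll4-Fc, where their VEGF-A intervals cross 0.

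Dll4-Fc and VEGF-A were also compared directly, on arrays already described and at unequal doses. Ccl5 was higher after Dll4-Fc than after VEGF-A by 4.17 (SE 0.41, 18.0-fold, adjusted p = 3.77e-06), Cxcl9 by 2.83 (SE 0.33, 7.11-fold, adjusted p = 1.93e-05) and Ccl12 by 1.58 (SE 0.25, 2.98-fold, adjusted p = 0.000390). With normexp and loess the differences were 3.43 for Ccl5, 1.16 for Cxcl9 and 1.49 for Ccl12, all still called. Cxcl12 was lower after Dll4-Fc, with a log2 difference of −1.32 (SE 0.11, adjusted p = 9.41e-07). The dim Cxcl12 probe A_52_P685021 gave −0.40 (adjusted p = 0.294) and was not called. Cxcl16 was also lower, with −0.41 (SE 0.12, adjusted p = 0.0395), a call lost in 7 of 9 fits that left out an array and in 5 of 16 other settings. Its probes A_51_P374198 and A_51_P374203 gave −0.18 (adjusted p = 0.270) and −0.28 (adjusted p = 0.170) and were not called. The arrays of Dll4-Fc and VEGF-A overlapped on every Cxcl16 probe. Of the 9 genes, 3 rose and 2 fell, where 6.05% of all genes rose and 6.68% fell. Ccl2 differed by −0.57 (95% interval −1.38 to 0.24, adjusted p = 0.418), Ccl4 by 0.13 (95% interval −0.50 to 0.76, adjusted p = 0.857) and Ccl7 by 0.12 (95% interval −0.50 to 0.75, adjusted p = 0.865), and none of these was called. Without the third Dll4-Fc array, Ccl2 was lower after Dll4-Fc than after VEGF-A, with a log2 difference of −1.09 (adjusted p = 0.00642).

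VEGF-A and VEGF Trap, the ligand and its decoy, differed for Ccl2 by 3.74 (SE 0.41, 13.4-fold, adjusted p = 1.14e-05), for Cxcl12 by 1.47 (SE 0.12, 2.78-fold, adjusted p = 5.78e-07) and for Ccl12 by 1.23 (SE 0.27, 2.34-fold, adjusted p = 0.00579). The dimmer Ccl12 probe A_51_P307401 gave 0.84 (adjusted p = 0.0702) and was not called. Nor was the dim Cxcl12 probe A_52_P685021, which gave 0.32 (adjusted p = 0.392). Ccl5 was lower after VEGF-A than after VEGF Trap, with a log2 difference of −2.08 (SE 0.45, adjusted p = 0.00518), or −1.47 (adjusted p = 0.0246) with normexp and loess. So was Cxcl16, with −0.61 (SE 0.13, adjusted p = 0.00514). Its probes A_51_P374198 and A_51_P374203 gave −0.37 (adjusted p = 0.0192) and −0.43 (adjusted p = 0.0312). Their calls were lost in 2 of 8 and 6 of 8 fits that left out an array. Of the 9 genes 3 thus rose and 2 fell, where 10.1% of all genes rose and 7.93% fell. These arrays shared slides, so the values can be given within each. On slide 3 (2 VEGF-A and 2 VEGF Trap arrays) the differences were 3.74 for Ccl2, 1.36 for Cxcl12, 1.35 for Ccl12, −1.60 for Ccl5 and −0.66 for Cxcl16. On slide 4 (3 VEGF-A arrays and 1 VEGF Trap array) they were 3.53, 1.59, 1.04, −2.68 and −0.52. The signs matched on both slides. Ccl2, Cxcl12 and Cxcl16 passed on slide 3, and Ccl2 and Cxcl12 passed on slide 4, with the lone VEGF Trap array assumed to vary like the other groups. With slide as a fixed block, all 5 genes passed on their brightest probes, and Ccl7 passed as well at 0.83 (adjusted p = 0.00165). The other Cxcl16 probes did not pass in that fit (adjusted p = 0.0771 and 0.103). In the fit of all 16 arrays the brightest Ccl7 probe was not called (0.88, adjusted p = 0.0745). The Ccl7 probes A_51_P436652 (2.19, adjusted p = 0.0281) and A_52_P208763 (1.81, adjusted p = 0.0238) were called there. Those calls were lost in 5 of 8 and 3 of 8 fits that left out an array.

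Against VEGF Trap, Dll4-Fc retinas had higher Ccl2 by 3.17 (SE 0.43, 8.98-fold, adjusted p = 0.000216), Ccl12 by 2.81 (SE 0.28, 6.99-fold, adjusted p = 1.58e-05), Cxcl9 by 2.87 (SE 0.37, 7.29-fold, adjusted p = 0.000148) and Ccl5 by 2.1 (SE 0.47, 4.28-fold, adjusted p = 0.00988). With normexp and loess the Cxcl9 difference was 1.23 (adjusted p = 0.000806). Cxcl16 was lower after Dll4-Fc, with a log2 difference of −1.02 (SE 0.14, adjusted p = 0.000209). Thus 4 of 9 genes rose and 1 fell, where 7.62% of all genes rose and 4.88% fell. With the single VEGF Trap array of slide 4 the calls of Ccl2, Ccl5 and Cxcl16 were lost (adjusted p = 0.0566, 0.269 and 0.0573). In a fit of the Dll4-Fc and VEGF Trap arrays alone the call of Ccl5 was lost (adjusted p = 0.0745).

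The Dll4-Fc arrays differed among themselves. The third Dll4-Fc array had the highest value of its group for Ccl2, Ccl4, Ccl5, Ccl7, Ccl12 and Cxcl9 on their brightest probes. The second had the lowest for Ccl5, Ccl7 and Cxcl9. The third array was also the highest of its group in the mean log2 ratio of several gene lists described further on. It stood at 1.55 for interferon pathway genes, with the other Dll4-Fc arrays at 0.17 to 0.89, and at 1.61 for monocyte genes, with the others at −0.28 to 1.06. For T and NK cell genes it stood at 0.87, with the others at 0.038 to 0.56, and for microglia and macrophage genes at 0.87, with the others at 0.41 to 0.72. Without this array Ccl2, Ccl5, Ccl12 and Cxcl9 were still called against hFc after Dll4-Fc. The groups did not all spread alike: for Ccl2 the SD was 0.29 over VEGF-A arrays and 1.04 over Dll4-Fc arrays, beside 0.46 over hFc arrays.

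Other chemokine genes were measured as well. Of 20 other chemokine ligand genes tested, 1 rose and 2 fell after VEGF-A, 4 rose and 0 fell after Dll4-Fc, and 0 were called after VEGF Trap. After VEGF-A the platelet ligand Ppbp rose by 1.39 (adjusted p = 0.00124), while Ccl19, which acts on CCR7, and Ccl6, a myeloid ligand, fell, with log2 differences of −0.93 (adjusted p = 0.000161) and −0.66 (adjusted p = 0.00494). After Dll4-Fc the myeloid ligands Ccl6 and Ccl9 rose by 1.23 (adjusted p = 6.52e-05) and 1.12 (adjusted p = 0.000401), and Ccl8 rose by 1.35 (adjusted p = 0.0116). Cxcl10, a second CXCR3 ligand picked out after its values were seen, rose by 3.58 (adjusted p = 0.0138), with 3 of 4 hFc arrays well above background.

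Of 20 receptor genes, 2 rose and 2 fell after VEGF-A, 4 rose and 0 fell after Dll4-Fc, and 0 rose and 1 fell after VEGF Trap. After VEGF-A the CXCL12 scavenger Ackr3 rose by 0.96 (adjusted p = 0.00181), and the other scavenger Ackr2 by 0.36 (adjusted p = 0.0426). The atypical receptor Ccrl2 fell, with a log2 difference of −0.94 (adjusted p = 0.000840). Cxcr4, the signalling receptor of CXCL12, picked out after its values were seen, fell as well, with −0.68 (adjusted p = 0.0429). After Dll4-Fc the fractalkine receptor Cx3cr1, also in the microglia list, rose by 0.77 (adjusted p = 0.00845), and Ackr2 by 0.53 (adjusted p = 0.00976). Cxcr3, the receptor of CXCL9 and also picked out after its values were seen, rose by 1.43 (adjusted p = 0.0207). After VEGF Trap Ackr2 fell, with −0.74 (adjusted p = 0.00519). Ccr2, the receptor of CCL2, CCL7 and CCL12, was not well above background on any array.

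Cytokine, NF-kB and interferon signalling are known to induce chemokines. Of 24 cytokine and NF-kB pathway genes, 12 rose and 1 fell after VEGF-A, among them Tnfaip2 (2.95, adjusted p = 7.37e-12), the interleukin 1 receptor Il1r1 (1.24, adjusted p = 1.99e-07) and Il1a (1.62, adjusted p = 2.72e-06). After Dll4-Fc 2 rose and 1 fell. The adhesion molecule Icam1 rose by 0.74 (adjusted p = 0.000550) and Tnfaip2 by 0.43 (adjusted p = 0.00527), while Vcam1 fell, with −1.44 (adjusted p = 4.81e-05). After VEGF Trap 1 rose, Il1a, by 0.69 (adjusted p = 0.0499). Of 19 interferon pathway genes, 2 rose after VEGF-A, the transcription factors Irf8 (1.16, adjusted p = 4.06e-07) and Irf1 (0.38, adjusted p = 0.0191). After Dll4-Fc 13 rose and 0 fell, among them the antiviral genes Bst2 (3.34, adjusted p = 3.57e-06), Isg15 (2.94, adjusted p = 3.37e-05) and Oasl2 (2.51, adjusted p = 5.35e-05). None was called after VEGF Trap. Cxcl10 is in this list too. A further list held heparan sulfate carriers, which hold chemokines at the cell surface, enzymes that build heparan sulfate, and proteases. Of its 13 genes tested, the carriers Gpc4 (0.49, adjusted p = 0.00257) and Sdc4 (0.31, adjusted p = 0.0203) rose after VEGF-A. From this list 0 were called after Dll4-Fc or VEGF Trap. The shares of all genes that rose or fell, given above, are the background for these counts.

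**Figure D4:**
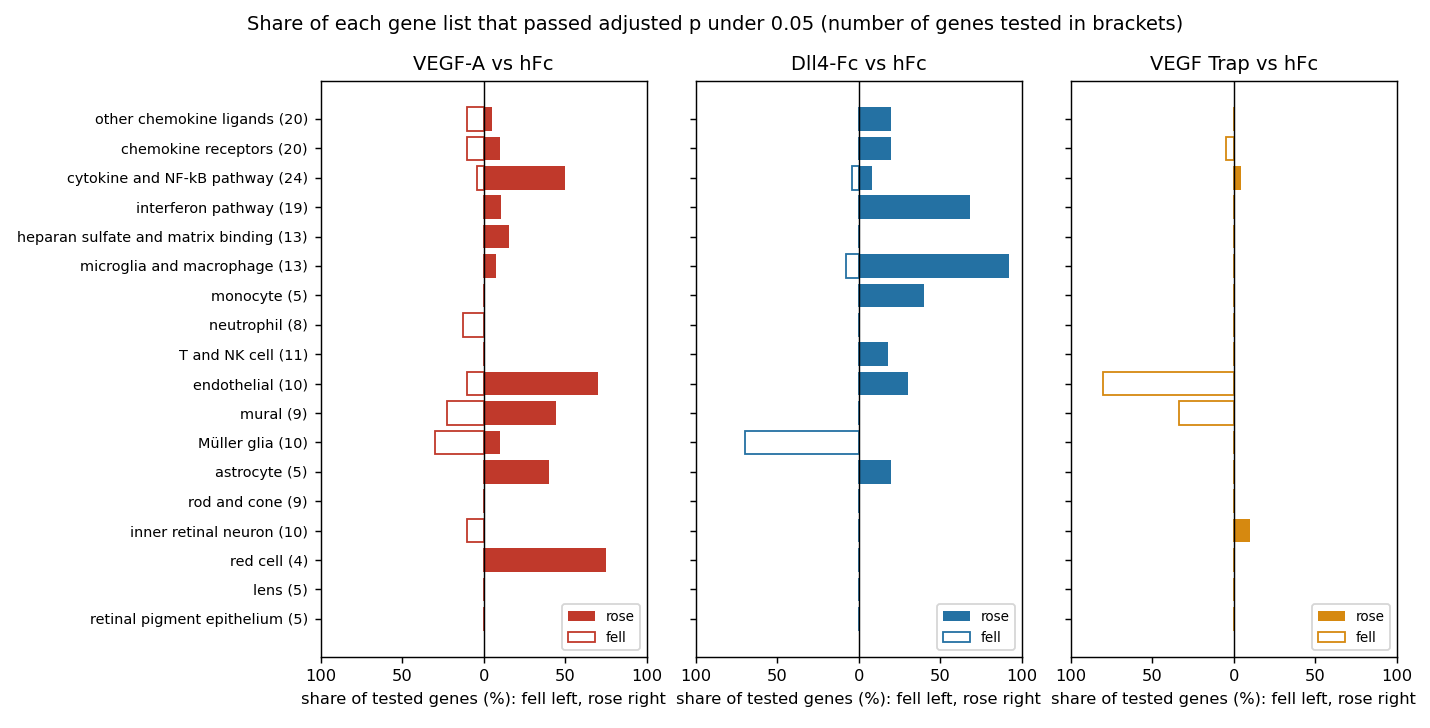
Share of the tested genes of each pathway and cell type list (horizontal axis, %) that rose (filled bars, right) or fell (open bars, left) against hFc, with panels for VEGF-A, Dll4-Fc and VEGF Trap and the number of genes tested in brackets. After Dll4-Fc 13 of 19 interferon and 12 of 13 microglia genes rose, and after VEGF-A 12 of 24 cytokine and 7 of 10 endothelial genes rose.

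Markers of cell types that could carry these ligands moved with the treatments, and their part in the ligand differences was not tested. Of 13 microglia and macrophage genes tested, 12 rose and 1 fell after Dll4-Fc, and 1 rose after VEGF-A. The mean log2 ratio of the list, over the 11 genes with a value on every array, was 0.41 to 0.87 on Dll4-Fc arrays, −0.54 to −0.43 on VEGF-A arrays, −0.32 to −0.16 on VEGF Trap arrays and −0.52 to −0.30 on hFc arrays. Its defining marker Aif1 rose by 1.5 (adjusted p = 4.54e-07) after Dll4-Fc and differed by −0.022 (adjusted p = 0.921) after VEGF-A. Of 5 monocyte genes tested, 2 rose after Dll4-Fc and 0 were called after VEGF-A or VEGF Trap, and the list level was −0.28 to 1.61 on Dll4-Fc arrays against −0.86 to −0.67 on hFc arrays. On VEGF-A arrays, where Ccl2 was high, it was −1.49 to −0.79. Of 11 T and NK cell genes, 2 rose after Dll4-Fc, with a list level of 0.038 to 0.87 against −0.20 to −0.029 on hFc arrays. The median log2 difference over the 11 genes was only 0.060, so the higher mean level rests on part of the list. Of 8 neutrophil genes, 1 fell after VEGF-A and 0 were called after Dll4-Fc or VEGF Trap.

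Of 10 endothelial genes, 7 rose and 1 fell after VEGF-A, 3 rose after Dll4-Fc, and 8 fell after VEGF Trap. The list level was 0.49 to 0.53 on VEGF-A arrays, −0.84 to −0.70 on VEGF Trap arrays and −0.27 to −0.15 on hFc arrays. Pecam1 rose by 1.31 (adjusted p = 2.02e-07) after VEGF-A, beside the rise of Cxcl12, and differed by 0.045 (adjusted p = 0.922) after Dll4-Fc. Of 9 mural cell genes, 4 rose and 2 fell after VEGF-A and 3 fell after VEGF Trap. Of 10 Müller glia genes, 7 fell after Dll4-Fc, where Rlbp1 fell, with a log2 difference of −1.11 (adjusted p = 6.43e-05), and 1 rose and 3 fell after VEGF-A. Of 5 astrocyte genes, 2 rose after VEGF-A and 1 after Dll4-Fc, and of 4 red cell genes 3 rose after VEGF-A. Of 10 inner retinal neuron genes, 1 fell after VEGF-A and 1 rose after VEGF Trap. Of 9 rod and cone, 5 lens and 5 pigment epithelium genes, 0 were called against hFc. The lens list level varied widely within groups, so the lack of a call there does not mean equal levels. It was −2.91 to 1.51 on hFc, −3.28 to 0.30 on VEGF-A, −3.15 to 0.26 on Dll4-Fc and −2.30 to 1.79 on VEGF Trap arrays. The labelled tissue was borne out by the Müller glia marker Rlbp1, well above background on all 16 arrays. Aif1, S100a8, Cd3e and Pecam1 each had a probe well above background on all 16 arrays as well. The second probes of Cd3e and of Pecam1 were so on only 2 arrays each. The S100a8 probe was dim, with Cy3 mean signals of 148.9 to 374.7.

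The genes whose patterns were nearest to each ligand were found by the root mean square difference between centred log2 ratios over 16 arrays, among 20413 genes. Ccl5 was followed by the acute phase gene Saa3 (0.57), the interferon-induced gene Ifi27l2a (0.65) and the complement factor Cfb (0.74). Ccl12 was nearest to the interferon-induced genes Ifi47 (0.36) and Rsad2 (0.38) and to Cd244a (0.46). Cxcl9 was nearest to Ms4a6c (0.37), the monocyte list gene Plac8 (0.38) and AW112010 (0.40). Cxcl12 was nearest to Srpx2 (0.13), Vamp5 (0.14) and Ehd2 (0.17), and Cxcl16 to Lrrc75b (0.17), the transcription factor Tcf7l2 (0.17) and the integrin Itga9 (0.17). Ccl2 was nearest to Ptpn7 (0.85), Mlkl (0.92) and Capg (0.99). The ligand patterns differed in size, so these distances cannot be set directly against each other. Their own root mean squares were 1.90 for Ccl2, 1.90 for Ccl5, 1.34 for Cxcl9 and 1.23 for Ccl12. They were 0.63 for Cxcl12, 0.61 for Ccl4 and 0.38 for Cxcl16. Ccl4 was nearest to 7630403G23Rik (0.37), to its fellow ligand Ccl7 (0.38) and to Emilin2 (0.39). The arrays share groups, so likeness over 16 arrays largely restates the group means.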

How the data were processed

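Retinal RNA in Cy3 was set against a common pool in Cy5 on 16 two-colour Agilent arrays, with no dye swap, per the labels. Per the file headers, Feature Extraction 9.5.1.1 wrote the mean signal intensity of each spot and the log10 LogRatio of Cy5 over Cy3, after background subtraction, detrending and dye normalization. The LogRatio was divided by log10 of 2 and its sign turned, which gives log2 of sample over pool. The authors also deposited a table of natural log ratios, used as an alternative. It ran in the direction sample over pool with r of at least 0.999 to the LogRatio on every array. It was not centred, with column medians of −0.00581 to 0.0218, and 25.08 to 27.55% of its cells were empty. No source used here names the genome build of the probes, so coordinates are given only for RefSeq promoters.

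Outlier spots were left out, spots of a probe averaged, and probes kept where Cy3 was well above background on at least 3 arrays (39787 of 43426 probes). Flags for background were the deposited flags of the scanner software. No spot was saturated. Probes were named through RefSeq by accession (26148), symbol (6915) or older symbol (3191), and otherwise as in the file (7172). All kept probes entered a single fit of 4 groups in limma 3.58.1 (run in R 4.3.3 with data.table at version 1.17.8 and statmod at 1.5.0) with 12 residual and 2.41 prior degrees of freedom. Moderated tests were 2-sided, adjusted by Benjamini-Hochberg within each of 6 comparisons at 0.05. Figures were drawn with matplotlib 3.10.9. The number of arrays limits the precision. On simulated arrays with a log2 change of 1, the fit recovered 66% (VEGF-A), 76% (Dll4-Fc) and 72% (VEGF Trap) of changed probes in the comparisons with hFc. With a log2 change of 2 it recovered 93%, 96% and 96%. The simulation gave each probe the same normal spread in all groups. Of 35209 probes it changed 100 by 1 and 100 by 2. The real groups did not all spread alike and had more called probes, so these rates need not hold here.

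The members and gene lists were chosen with earlier results of these data known. Named genes were the members, up to 3 called genes of smallest p per pathway list and comparison, cell type defining markers, and the 3 nearest patterns per member called on its brightest probe. Some genes that this rule names are not reported here. Exceptions are marked as picked out after their values were seen. Alternatives were other backgrounds, normalizations, filters, probe summaries, slide or title code as a block, subsets of arrays and each array left out. The title code is a number near the end of each sample title that the labels do not explain. Leaving out spots with surrogate values was added after seeing the data.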

Additional observations from a re-analysis of the deposited data

Results flagged for a closer look

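In 51 sets of 4 or 5 arrays (17 probes in 3 groups), 3 had an array whose gap to its nearest neighbour, divided by the range of the group, passed the 95% critical value of Dixon's test for that number of arrays, where chance marks about 1 set in 20. All 3 were Ccl2. On the Ccl2 probe A_51_P286737, Dll4-Fc array 3 stood at 1.97, with the nearest array of that group at −0.0036. On the other Ccl2 probe, A_66_P107980, the same array stood at 1.86, with the nearest at −0.037. VEGF-A array 5 stood at 1.49 on A_51_P286737, with the nearest VEGF-A array at 0.93. The 2 probes read the same RNA, so their values are not independent.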

How the results depend on the processing

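Of 1851 values for single probes under other settings, 1688 kept their direction and side of the threshold, 118 no longer passed it, 22 newly passed it and 23 turned sign. All 1291 values of results called in the report kept their direction. The 5 counts of called ligand genes other than VEGF Trap against hFc moved by more than 1.5 times only in fits with the arrays of a single slide. VEGF-A against VEGF Trap gave 3 calls on slide 3 and 2 on slide 4, and Dll4-Fc against VEGF Trap gave 2 with slide 4. VEGF Trap against hFc, with 1 call, gave 0 with normexp and loess, 0 with either slide alone and 2 when only those groups were fitted. Fewer arrays entered the fits by slide. With each array left out in turn, the counts were 3 to 4 for VEGF-A against hFc, 5 to 7 for Dll4-Fc against hFc, 0 to 1 for VEGF Trap against hFc, 5 to 6 for VEGF-A against VEGF Trap, 4 to 5 for Dll4-Fc against VEGF-A and 5 to 6 for Dll4-Fc against VEGF Trap. VEGF Trap against hFc had 0 calls without hFc array 1 or VEGF Trap array 3. Without VEGF Trap array 1 the single call was a fall of the near-background Cxcl1. The cause of these moves was not tested.

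The results that turned sign were near 0 in the report and not called. Against hFc after VEGF-A, Cxcl9 gave −0.10 with normexp and loess and −0.084 with the deposited table, and Ccl5 gave −0.087 with normexp and loess and −0.011 to 0.32 with an array left out. Against hFc after VEGF Trap, normexp and loess gave −0.15 for Ccl2, −0.031 for Ccl12 and −0.17 for Cxcl9. Cxcl9 gave −0.13 with the deposited table, −0.033 without surrogate spots and −0.033 to 0.36 with an array left out. Ccl7 gave 0.047 from Cy3 alone, 0.89 as the median of probes and 0.0047 with the title code as a block. It gave 0.075 with only the VEGF Trap array of slide 4 and −0.073 to 0.071 with an array left out. Between VEGF-A and VEGF Trap, Cxcl9 gave −0.061 from Cy3 alone, −0.12 on slide 4 and −0.081 to 0.11 with an array left out. Between Dll4-Fc and VEGF-A, leaving out an array gave −0.31 to 0.35 for Ccl7 and −0.19 to 0.33 for Ccl4.

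Over all probes, VEGF Trap against hFc had 1046 calls, with 2503 under normexp and loess, 388 from Cy3 alone, 245 with slide 4, 554 with only those groups, 539 with hFc arrays of a shared title code averaged, and 1920 with the title code as a block. VEGF-A against VEGF Trap had 6714, with 4183 and 3311 within slides 3 and 4. Dll4-Fc against VEGF Trap had 4769, with 1594 with slide 4 and 2997 with only those groups. With an array left out, these 3 counts were 259 to 933, 4173 to 6610 and 2205 to 4760, each lowest without VEGF Trap array 1. Signal over background limits Ccl3 and Cxcl1, and hFc values of Cxcl9, Ccl7 and Ccl12 probes. The Ccl5 probes and A_66_P107980 for Ccl2 were well above background on every array but were also dim on hFc arrays. Cy3 mean signals there were 166.4 to 185.4 (A_51_P485312) and 195.2 to 250.5 (A_52_P638459) for Ccl5. For A_66_P107980 they were 173.1 to 203. The replicate numbers follow the order of the samples and pair nothing. Only hFc arrays 1 and 2 share a title code, as do VEGF-A array 4 and VEGF Trap array 3. What a shared code means is not stated, and no paired analysis was run. The consensus correlation was −0.023 within slides and −0.503 within title codes, the latter resting only on the arrays that share a code.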
